A study of Homo sapiens with 6 samples.

Results

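The genes described here serve DNA repair and the diversification of antibody genes. Members were 40 named genes, and a probe set (a group of array probes that report on a transcript) belonged to a member where the platform annotation gave that member as its only gene symbol. By this rule 85 of the 54613 probe sets on the array fell to 36 of the 40 genes, out of 19775 genes that have such a probe set. Expression of BRCA2, FANCA and FANCD2 was not analysed here, nor was that of PMS2, whose name appeared only on 2 probe sets shared with its relative PMS2CL. These genes enter only the search of start sites.

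RNA came from BCWM1, a human line long grown in culture that derives from Waldenström macroglobulinemia, in which malignant B cells partly mature toward plasma cells. Parental BCWM1 cells (3 samples) were compared with BCWM1 cells labelled as mutated (3 samples), and the series title names the mutation as C1013G in CXCR4, the receptor of the chemokine CXCL12. Both groups share the cell line, and no treatment or time is labelled. The sources used here do not state how the mutated cells were made, whether they grew from a clone, or whether cells with an empty vector were kept. Nor do they tie the 3 samples of either group to distinct cultures, and the p-values cover only the spread seen among these samples, some or all of which may be technical.

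In B cells, repair enzymes have a second task beside the upkeep of the genome. Cytosines of the antibody genes are turned into uracils, the uracil glycosylase UNG and the mismatch sensor MSH6 read those uracils, and the lesions end as point mutations or as DNA breaks. Breaks made for class switching are marked by ATM and 53BP1 and joined by the end joining factors Ku (XRCC5 and XRCC6), DNA-PKcs (PRKDC), XRCC4 and ligase IV, while homologous recombination and the Fanconi pathway serve breaks and crosslinks met during replication.

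Median intensity was 28.46 to 31.83 on the 6 arrays, and Pearson's r across tested probe sets, which are not independent replicates, lay between 0.994 and 0.996 for arrays of the same group and between 0.967 and 0.97 for arrays of different groups. Of 7 B cell markers 6 were measured and tested, among them MS4A1 (mean intensity 10426 in parental and 10233 in mutated cells) and PAX5 (4947 and 5188), and of the 6 CD79A and CD79B rose and CD22 fell. Of 16 markers of T cells, myeloid cells, epithelium, fibroblasts, endothelium and red cells 15 were measured, 10 of which had a mean below the highest array median. Their summed intensity was 1259 to 1333 in parental and 1213 to 1287 in mutated cells, and most of it came from COL1A1 (710 and 442) and PECAM1 (333 and 561), of which the former fell and the latter rose (limma, adjusted p under the threshold of 0.05). The COL1A1 values are those of its brightest probe set. Of its far dimmer ones 1 fell (−0.32; limma, adjusted p = 0.040) and the others gave −0.22, −0.095 and 0.13 and did not pass. Dimmer tested probe sets of PECAM1 rose (0.62 and 0.44). The part of these markers in the results was not tested.

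Repair genes as a whole changed about as often as any other gene. Of the 36 measured members, 10 rose, 8 fell and 18 did not pass an adjusted p of 0.05 (limma with Benjamini-Hochberg adjustment over all tested probe sets, each gene read on its brightest tested probe set). MGMT counts among the rises but passed the filter on dim probe sets only through its mutated values. The share that rose among all 13644 tested genes was 30.1%, the share that fell 18.9% and the share that changed either way 49.0%, so the 18 of 36 members called stand near the background. The 3 mutated values lay entirely above or below the 3 parental values in 20 members, or 55.6%, against 61.2% of all genes. The median log2 change was −0.022 over the members and 0.038 over all genes.

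Sizes were small. Among the 35 members other than MGMT none changed by 2-fold on the probe set that represents it, which 5.33% of all genes did with an adjusted p under 0.05, and the largest log2 change there was 0.60, in RAD52. The median size of change, regardless of sign, was 0.16 on the log2 scale in members and 0.21 in all genes. All changes are on the scale of log2(intensity + 16), which understates the change of dim probe sets. Over the 77 member probe sets tested, 20 rose, 16 fell and 41 did not pass, so 46.8% were called against 47.5% of all tested probe sets (30.9% rose and 16.6% fell).

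**Figure D1:**
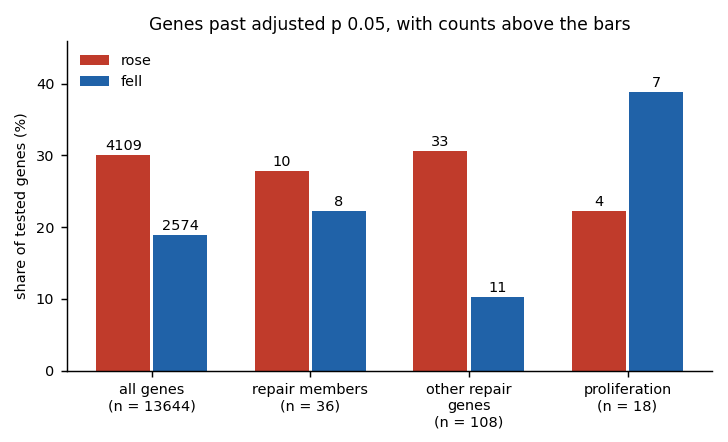
Share of tested genes that rose (red) or fell (blue) (limma, adjusted p below 0.05) in mutated relative to parental cells, in percent, for all 13644 genes, the 36 repair members, 108 other repair genes and 18 proliferation genes, with the number of genes above each bar. Members rose in 27.8% and fell in 22.2%, beside 30.1% and 18.9% of all genes.

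The balance of rises and falls depended on how the arrays were scaled. With quantile normalization 8 members rose and 9 fell, and with median centring 7 rose and 11 fell. The share of rises among all gene calls was 61.5% as deposited, 49.4% on quantile-normalized and 46.1% on median-centred arrays. The count of falls was the less stable: without parental replicate 1 or 2 or mutated replicate 2 there were 4, and without mutated replicate 1 or 3 there were 5, in place of 8. The 5 members ATM, CHEK1, ERCC5, RAD52 and XRCC1 kept their call and direction in each of the 17 alternative settings tried.

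**Figure D2:**
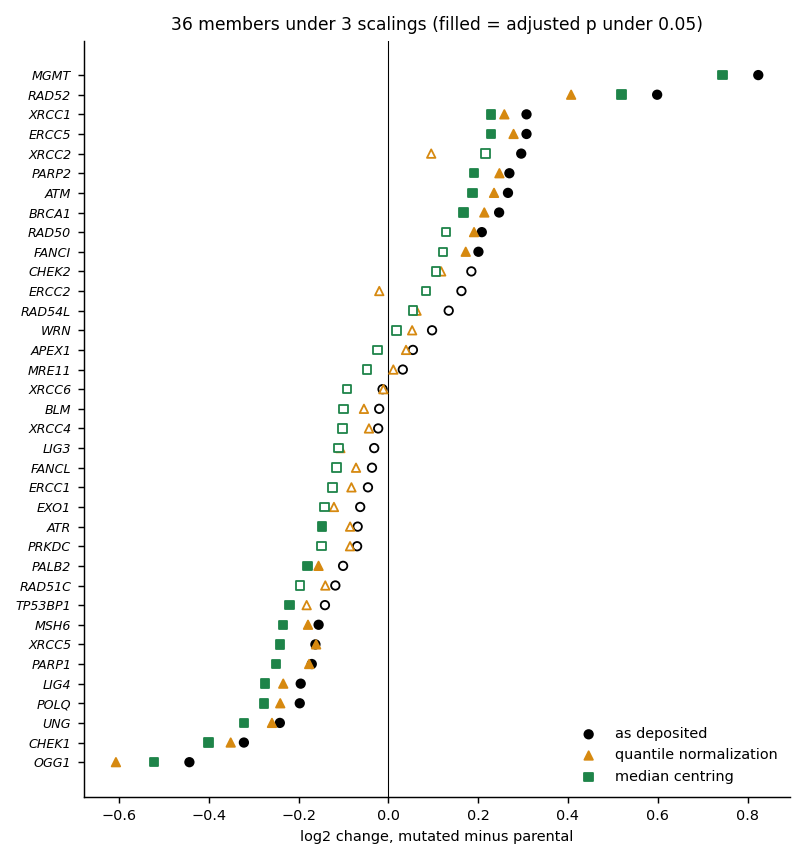
Log2 change (mutated minus parental, horizontal axis) of the 36 members under 3 scalings of the arrays: as deposited (circles), quantile normalization (triangles) and median centring (squares), filled where the adjusted p was under 0.05. Members are ordered by the change as deposited, from OGG1 (−0.44) to the dim MGMT, and most squares lie to the left of the circles.

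Start sites of the members were searched for 4 sets of letters, all reported here. Windows of 300 bases (250 before to 50 after an annotated start, RefSeq, GRCh38.p14) were read on both strands, for 36 of the 40 members, 32 of them measured on the array, and for 27305 genes in all. The ETS letters CCGGAAG were in the windows of 15 of the 36 members (41.7%) and of 12.2% of all genes, the CCAAT box in 21 (58.3%) and 39.7%, and the NRF1 motif in 0 and 1.52%. The letters of E2F factors, which drive genes of the replication phase (TTTGGCGC, TTTCCCGC, TTTCGCGC or TTTGCCGC), were in 8 (22.2%) and 3.99%. Of the 32 measured members 5, or 15.6%, held an E2F match. All 5 are shown as 30 bases each, 5′ to 3′ on the gene's strand, with the match in capitals (the reverse complement in XRCC2 and XRCC6).
UNG, chr12:109098098-109098127, plus strand: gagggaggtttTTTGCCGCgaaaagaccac
MSH6, chr2:47783137-47783166, plus strand: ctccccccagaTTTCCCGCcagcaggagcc
EXO1, chr1:241848197-241848226, plus strand: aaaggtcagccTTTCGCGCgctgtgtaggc
XRCC2, chr7:152676102-152676131, minus strand: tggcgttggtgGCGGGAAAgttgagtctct
XRCC6, chr22:41621315-41621344, plus strand: tgtccaagttggtcgcttccctGCGCCAAA

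Of these 5 genes UNG and MSH6 fell, XRCC2 rose and EXO1 and XRCC6 did not pass. Among measured members with a window the E2F match was in 1 of 9 that rose, 2 of 7 that fell and 2 of 16 that did not pass, and a match is a description of letters, not of a bound site. The UNG match lies in the 250 bases before the downstream one of its 2 annotated starts, and the window of the upstream start held none. These 250 bases are shown whole as an example, with the match in capitals.
UNG, chr12:109097922-109098171, plus strand: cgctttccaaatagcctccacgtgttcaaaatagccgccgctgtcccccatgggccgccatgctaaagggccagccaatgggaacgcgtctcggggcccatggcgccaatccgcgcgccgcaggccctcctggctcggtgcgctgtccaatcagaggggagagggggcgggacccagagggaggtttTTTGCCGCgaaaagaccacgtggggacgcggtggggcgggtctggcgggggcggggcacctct
The array's UNG probe set carries the suffix _s_at, and which start its transcripts come from was not analysed here. Nor was it analysed which form of UNG each start gives, so the match is not tied to antibody genes.

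Base excision repair, the route that removes damaged single bases and deaminated cytosines, had 7 members, of which 3 fell, 2 rose and 2 did not pass. Among all tested genes 18.9% fell and 30.1% rose. UNG and OGG1, the glycosylases among the members, fell, while of 8 other glycosylases tested NEIL3 (0.38), NTHL1 (0.37), SMUG1 (0.25) and MUTYH (0.16) rose, TDG (−0.30) fell and MPG, NEIL2 and MBD4 did not pass (named after their values were seen). These calls rest on the brightest probe set, and a dimmer one of MBD4 fell (−0.54; limma, adjusted p = 0.0046) while others gave 0.12 and 0.012. UNG, which cuts out uracil, gave intensities of 1370, 1399 and 1418 on the parental arrays and of 1238, 1173 and 1124 on the mutated arrays. The groups did not overlap, and the log2 change was −0.24 (SE 0.054, n = 3 per group; limma, adjusted p = 0.011). OGG1, which removes oxidised guanine, gave 225, 190 and 204 in parental and 153, 141 and 148 in mutated cells, a log2 change of −0.44 (SE 0.071, n = 3; limma, adjusted p = 0.0027). That was the largest fall among the probe sets that represent a member. A second and dimmer OGG1 probe set gave 0.093 (limma, adjusted p = 0.55), and as the mean of its probe sets OGG1 did not pass (−0.17; limma, adjusted p = 0.070, in a range of 2.0e-04 to 0.070 over its alternatives). APEX1, the nuclease that cuts the backbone after a glycosylase has acted, had means of 2221 ± 126 and 2305 ± 29.5 (SD, n = 3) and a log2 change of 0.055 with a 95% interval of −0.082 to 0.19, a sign that turned with median centring (−0.025).

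Among the factors that finish this repair at nicked strands, the scaffold gene XRCC1 rose from 470, 485 and 471 to 582, 618 and 577, a log2 change of 0.31 (SE 0.050, n = 3; limma, adjusted p = 0.0028). All 3 mutated values exceeded every parental value by over 90 units of intensity. LIG3, the ligase that works with XRCC1, did not pass on any of its 5 tested probe sets, which gave −0.21 to −0.019, and on its brightest the groups overlapped (396, 401 and 406, then 396, 375 and 405).

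The poly(ADP-ribose) polymerases, which sense strand breaks, moved in opposite directions. PARP1 fell from 3808, 3964 and 3867 to 3512, 3546 and 3282, a log2 change of −0.17 (SE 0.052, n = 3; limma, adjusted p = 0.035). The call on PARP1 was lost whichever of the 6 samples was dropped (limma, adjusted p = 0.056 to 0.098) and without the filter on dim probe sets (0.074), though the groups did not overlap. PARP2 rose on its 3 probe sets, from 946, 943 and 920 to 1094, 1136 and 1167 on the brightest (log2 change 0.27, SE 0.049, n = 3; limma, adjusted p = 0.0044) and by 0.42 and 0.28 on the others. Each of the 3 showed no overlap between groups. All 3 carry the suffix _s_at or _x_at, which marks probes that can match several transcripts.

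In mismatch repair, MSH6, which reads base mismatches, fell on both tested probe sets. The brightest gave 1888, 1946 and 1946 in parental and 1789, 1704 and 1693 in mutated cells, a log2 change of −0.16 (SE 0.048, n = 3; limma, adjusted p = 0.037), and the other −0.38 (adjusted p = 0.029). Without 1 sample the brightest passed only when mutated replicate 1 was left out (limma, adjusted p = 0.047, against 0.066 to 0.11 for the other 5), and it did not pass without the filter (0.079). EXO1, the exonuclease that opens the strand behind a mismatch, had means of 482 ± 22.2 and 461 ± 37.0 (SD, n = 3) with overlapping groups and a log2 change of −0.063 (limma, adjusted p = 0.52), a sign that turned without mutated replicate 3 (0.0023).

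Of 6 members of the classical end joining route 2 fell (18.9% of all genes did), 0 rose (30.1% of all genes did) and 4 did not pass. Their log2 changes ran from −0.20 to −0.013. At an unadjusted p under 0.05 the counts were the same, 2 lower and 0 higher (limma), and with median centring TP53BP1 fell as well. XRCC5, the larger Ku subunit, fell on its 3 probe sets. Its brightest gave 4370, 4411 and 4155 in parental and 3937, 3814 and 3799 in mutated cells, a log2 change of −0.16 (SE 0.049, n = 3; limma, adjusted p = 0.033). The other 2 gave −0.43 and −0.30 (limma, adjusted p = 6.5e-04 and 0.0062). The groups did not overlap on any of the 3, though on the brightest the call was lost without the filter (limma, adjusted p = 0.073) and when a sample other than parental replicate 3 was left out (0.058 to 0.096). XRCC6, the smaller Ku subunit, gave 4687, 4861 and 4697 and then 4781, 4707 and 4630, with overlapping groups and a log2 change of −0.013 (95% interval −0.12 to 0.097), whose sign turned without parental replicate 2 and as the mean of its probe sets (0.069).

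LIG4, the ligase that seals class switch breaks, fell from 637, 650 and 656 to 548, 577 and 567, a log2 change of −0.20 (SE 0.047, n = 3; limma, adjusted p = 0.014), and its second probe set gave −0.41 (adjusted p = 0.042). The groups did not overlap on either probe set, and without mutated replicate 1 the adjusted p on the brightest was 0.0505, in a range of 0.0024 to 0.0505 over its alternatives. XRCC4, which holds ligase IV at the break, had means of 952 ± 36.5 and 938 ± 43.8 (SD, n = 3; log2 change −0.023, limma, adjusted p = 0.78). A dim XRCC4 probe set, near the array median at 37.5 and 47.6, rose by 0.25 (limma, adjusted p = 0.037), and the other 2 gave −0.089 and −0.042.

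PRKDC and TP53BP1 differed by probe set. For PRKDC, the kinase recruited by Ku, the brightest probe set gave −0.07 (limma, adjusted p = 0.30) with means of 2430 ± 56.3 and 2316 ± 80.5 (SD, n = 3), while a second fell from 1096, 1032 and 963 to 754, 716 and 774, a log2 change of −0.45 (SE 0.065; adjusted p = 0.0016). For TP53BP1, which shields break ends from resection and so favours joining, the 3 tested probe sets gave −0.14, −0.19 and −0.25, and only the last passed (limma, adjusted p = 0.041). POLQ encodes polymerase theta, which joins ends through short homologies. Its probe sets were called in opposite directions. The brighter fell from 613, 640 and 594 to 550, 516 and 539 (log2 change −0.20, SE 0.053, n = 3; limma, adjusted p = 0.022) and the dimmer rose from 194, 205 and 191 to 250, 244 and 222 (0.26, SE 0.062; adjusted p = 0.014). As the mean of its probe sets POLQ gave 0.030, and the call on the brighter was lost without parental replicate 1 or 2 or mutated replicate 2 (limma, adjusted p = 0.058 to 0.073). These data therefore give no direction for POLQ.

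**Figure D3:**
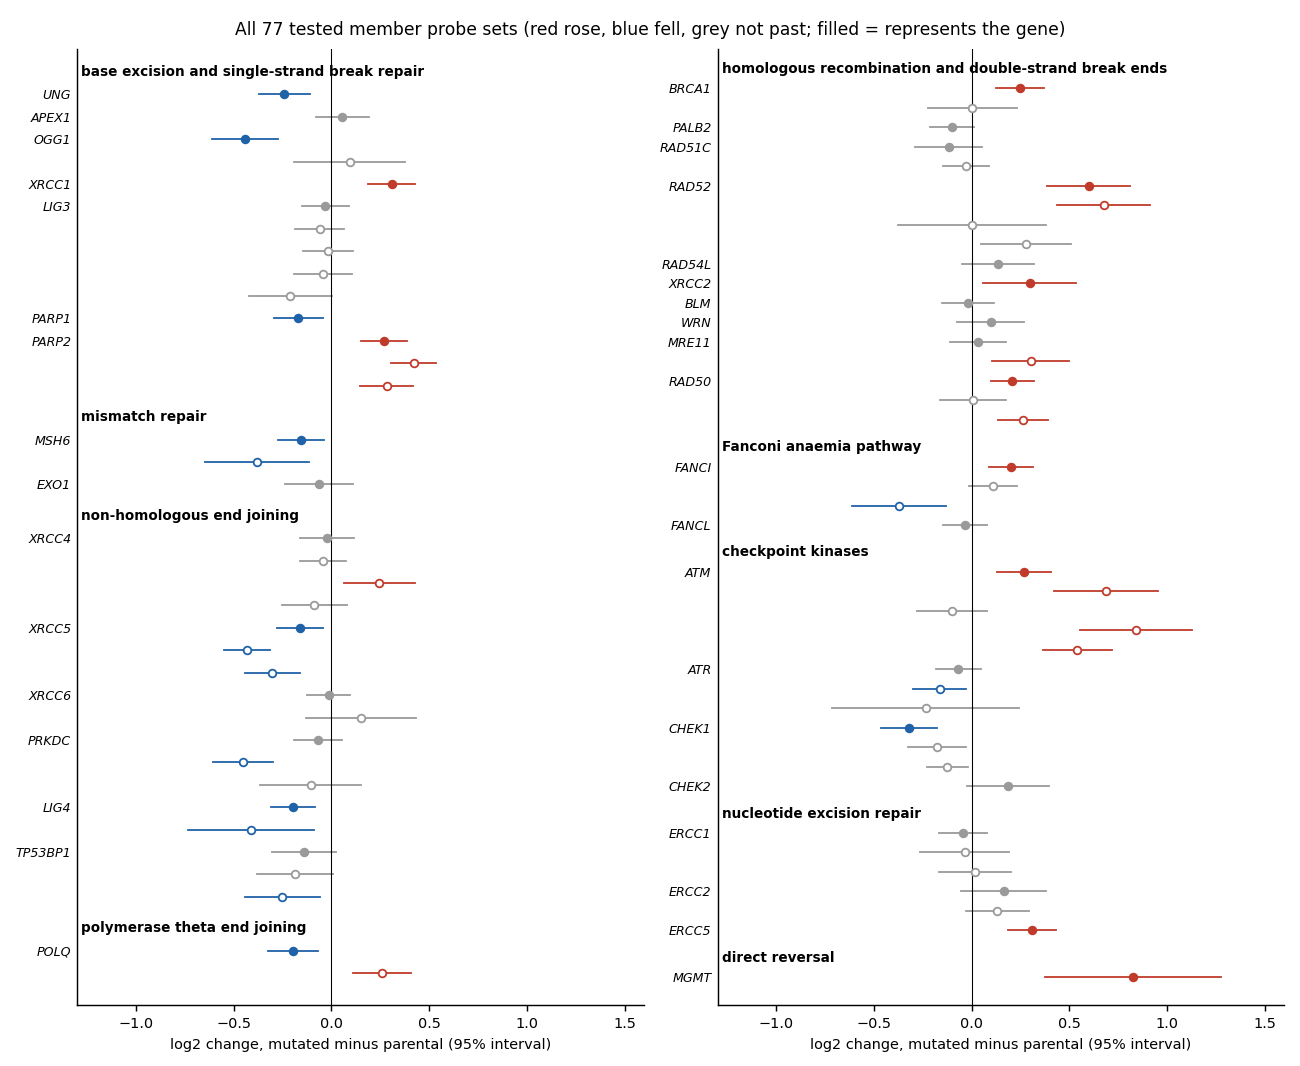
Log2 change (mutated minus parental, horizontal axis) with its 95% interval for each of the 77 tested probe sets of the 36 members, grouped by repair route; filled points represent the gene and open points are its other probe sets, red where the probe set rose, blue where it fell and grey where it did not pass. The 3 XRCC5 points all lie left of 0 and the 3 PARP2 points right of it, while POLQ and FANCI have called points on both sides.

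Of 10 measured members of homologous recombination 4 rose (30.1% of all genes did), 0 fell (18.9% of all genes did) and 6 did not pass. At an unadjusted p under 0.05 the counts were 4 higher and 0 lower (limma). No route was tested as a set. With quantile normalization 3 rose and 1 fell, and with median centring 2 rose and 1 fell. Among all gene calls the share of rises was 61.5% as deposited, and 49.4% and 46.1% under these 2 scalings. RAD52, a mediator of strand annealing, rose from 75.2, 63.6 and 67.2 to 110, 126 and 101, a log2 change of 0.60 (SE 0.089, n = 3; limma, adjusted p = 0.0019). A second RAD52 probe set gave 0.68 (adjusted p = 0.0018). The mutated values on both lay above every parental value, and the other 2 RAD52 probe sets, at means under 30 intensity units, gave 0.28 and 7.4e-05 and did not pass. BRCA1, which steers breaks toward recombination, rose from 705, 752 and 734 to 862, 849 and 898, a log2 change of 0.25 (SE 0.051, n = 3; limma, adjusted p = 0.0077). Its dimmer probe set gave 0.0020, and as their mean BRCA1 did not pass (0.12; limma, adjusted p = 0.11, in a range of 3.5e-04 to 0.11 over its alternatives). XRCC2, a recombination factor, read 99.3, 113 and 96.7 and then 127, 115 and 150, a log2 change of 0.30 (SE 0.0999, n = 3; limma, adjusted p = 0.048). It was the least stable call, kept in 6 of 17 alternatives, with 0.095 (adjusted p = 0.48) under quantile normalization and an adjusted p of 0.091 to 0.13 without mutated replicate 1 or 3 or parental replicate 1 or 3.

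RAD50, the zinc-hook subunit of the complex that tethers and trims broken ends, rose from 1302, 1349 and 1349 to 1524, 1555 and 1549 (log2 change 0.21, SE 0.045, n = 3; limma, adjusted p = 0.0095). Another probe set gave 0.26 (adjusted p = 0.0076) and the last 0.0077 (0.94), and with median centring RAD50 did not pass (0.13; adjusted p = 0.075, in a range of 3.2e-04 to 0.94). MRE11, the nuclease of the same complex, did not pass on its brightest probe set (1180 ± 17.1 and 1208 ± 73.4, SD, n = 3; log2 change 0.032, −0.047 with median centring and −6.6e-04 without mutated replicate 3), while a dimmer one rose from 67.2 to 86.5 (0.30, adjusted p = 0.023). PALB2, the link between BRCA1 and BRCA2, gave 509, 496 and 503 and then 475, 475 and 453. These groups did not overlap, but the log2 change of −0.10 did not pass as deposited (limma, adjusted p = 0.12), though it did with quantile normalization (−0.16, 0.031) and median centring (−0.18, 0.027). RAD51C (−0.12), RAD54L (0.13), BLM (−0.020) and WRN (0.097), a recombination factor, a strand-exchange motor and a pair of RecQ helicases, did not pass, and their groups overlapped. RAD54L passed without mutated replicate 3 (0.21, limma, adjusted p = 0.037).

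In the Fanconi pathway, which unhooks crosslinks between strands, FANCI was called both ways. Its brightest probe set rose from 1646, 1668 and 1701 to 1873, 1913 and 1985 (log2 change 0.20, SE 0.048, n = 3; limma, adjusted p = 0.014), and another fell from 429, 331 and 361 to 299, 288 and 264 (−0.37, SE 0.10; adjusted p = 0.022). The groups did not overlap on either. With median centring the rise did not pass (0.12, adjusted p = 0.090), and as the mean of its 3 probe sets FANCI gave −0.021, so no direction is given for the gene. FANCL, the ligase subunit that attaches ubiquitin to FANCD2 and FANCI, read 3194 ± 95.4 and 3113 ± 12.7 (SD, n = 3), a log2 change of −0.036 with a 95% interval of −0.15 to 0.076.

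Among the 4 checkpoint kinases ATM rose and CHEK1 fell, under each scaling tried. ATM, the kinase that answers breaks and is needed for orderly class switching, rose on 4 of its 5 tested probe sets. The brightest gave 707, 742 and 776 in parental and 883, 870 and 933 in mutated cells, a log2 change of 0.27 (SE 0.057, n = 3; limma, adjusted p = 0.0091), and 3 dimmer ones gave 0.54, 0.69 and 0.84 (adjusted p = 0.0013 to 0.0027). One of these went from 75.3, 62.5 and 53.2 to 142, 123 and 114. The fifth gave −0.10 (adjusted p = 0.30). ATR, the kinase that answers stalled replication, gave 1196, 1180 and 1237 and then 1154, 1117 and 1171, groups that did not overlap but a log2 change of −0.068 that did not pass (limma, adjusted p = 0.29) except with median centring, and a second probe set fell by 0.17 on the log2 scale (adjusted p = 0.049).

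CHEK1, the effector kinase downstream of ATR, fell from 943, 922 and 895 to 734, 777 and 689, a log2 change of −0.32 (SE 0.060, n = 3; limma, adjusted p = 0.0050). Every mutated value lay over 100 units below every parental value. Its other tested probe sets gave −0.18 and −0.12 and missed the threshold (adjusted p = 0.054 and 0.055). CHEK2, the effector downstream of ATM, read 379, 386 and 446 and then 488, 479 and 417, with overlapping groups and a log2 change of 0.18 (95% interval −0.027 to 0.40; limma, adjusted p = 0.13). It passed with trend and robust eBayes (adjusted p = 0.048) and in no other alternative.

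Nucleotide excision repair removes bulky lesions such as those made by ultraviolet light. ERCC5, the nuclease that cuts 3′ of such a lesion, rose from 811, 847 and 798 to 1048, 1025 and 978, a log2 change of 0.31 (SE 0.052, n = 3; limma, adjusted p = 0.0034), with every mutated value above every parental one. ERCC1, part of the nuclease that cuts on the other side, gave −0.045, −0.037 and 0.018 on its 3 probe sets, none of which passed. ERCC2, a helicase of the TFIIH complex, read 137 ± 1.69 and 156 ± 20.5 (SD, n = 3), a log2 change of 0.16 (limma, adjusted p = 0.19) that reached 0.27 (0.013) without mutated replicate 2 and was −0.020 with quantile normalization. MGMT, which strips alkyl groups from guanine in a single step, read 13.6, 9.78 and 6.26 in parental and 29.6, 42.0 and 19.7 in mutated cells. The groups did not overlap, but all parental values lay below the intensity of about 18 at which dim probe sets were left out, so MGMT was tested only through the group where it was high and its call is not read as support. The fitted log2 change moved with the pseudocount, from 0.82 with 16 to 0.35 with 64, and gives no size. It was dropped by the filter in 5 of the 17 alternatives, among them without mutated replicate 1 or 2, and both groups were near or under the array median.

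**Figure D4:**
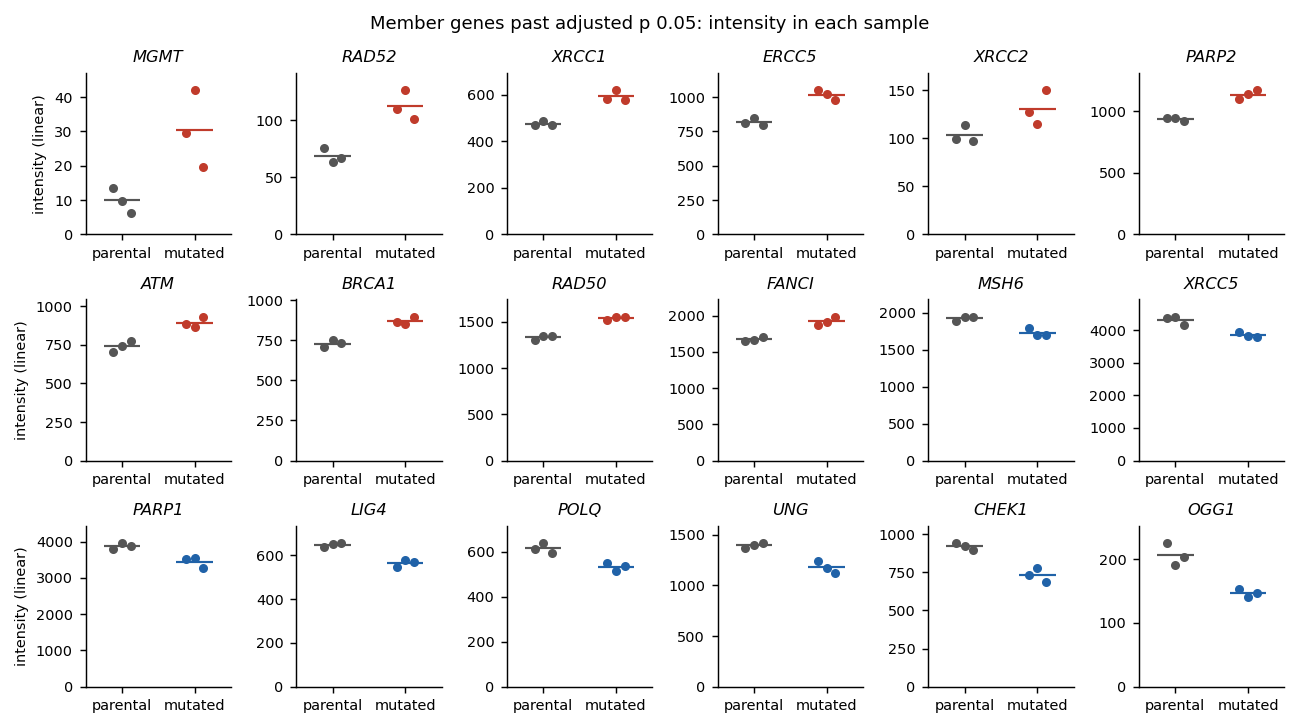
Intensity (linear scale, from 0) in each of the 3 parental (grey) and 3 mutated (red where the gene rose, blue where it fell) samples for the 18 members past an adjusted p of 0.05, with a line at each mean. The groups do not overlap in any panel, and MGMT's intensities are at most 42.0.

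Some members share a complex or a kind of activity, and for 6 such pairs the ratio of the 2 representative probe sets was taken within each array. The 6 pairs, and which gene of each stood first, were picked after the values of single genes were known. The signs of the shifts and the lack of overlap therefore partly restate those values. The log2 ratio of CHEK2 to CHEK1 was higher in mutated than in parental cells by 0.51, that of PARP2 to PARP1 by 0.44, of ATM to ATR by 0.33, of RAD50 to MRE11 by 0.18 and of XRCC6 to XRCC5 by 0.15. In each of these 5 pairs the 3 mutated ratios exceeded the 3 parental ones, where 61.2% of all single genes showed no overlap. No such share was computed for other ratios. An exact two-sided permutation test gave p = 0.1, the smallest that 3 against 3 samples allow (0.12 after Benjamini-Hochberg adjustment over the 6 pairs). The design could not reach 0.05. XRCC4 to LIG4 shifted by 0.17 with overlapping groups (exact permutation p = 0.2, adjusted p = 0.2). The sizes depend on the probe sets used. As the mean of each gene's probe sets and without the suffixes _s_at and _x_at, RAD50 to MRE11 turned to −0.0084 and −0.29, XRCC6 to XRCC5 came to 0.37 and 0.29, XRCC4 to LIG4 to 0.33 and 0.44 and ATM to ATR to 0.60 and 0.43. These are changes of ratio, and say nothing of which gene of a pair is more abundant.

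**Figure D5:**
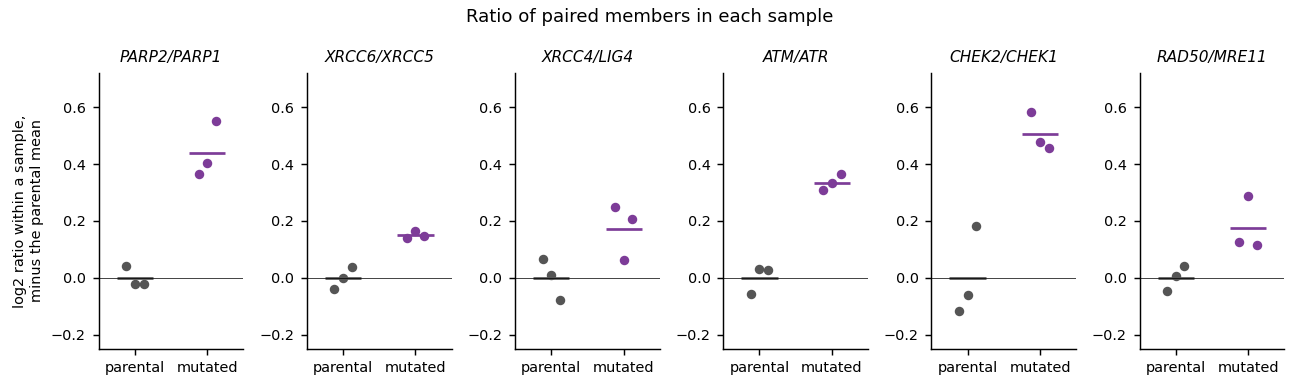
Log2 ratio of 2 members' representative probe sets within each sample, minus the mean of the parental samples (vertical axis), for 6 pairs in 3 parental (grey) and 3 mutated (purple) samples, with lines at the means. The mutated points lie above the parental points in every pair except XRCC4/LIG4, with a shift of 0.51 in CHEK2/CHEK1.

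The 18 members that did not pass were APEX1, LIG3, EXO1, XRCC4, XRCC6, PRKDC, TP53BP1, PALB2, RAD51C, RAD54L, BLM, WRN, MRE11, FANCL, ATR, CHEK2, ERCC1 and ERCC2. The 95% intervals of their log2 changes reached at lowest −0.30 (TP53BP1) and at highest 0.40 (CHEK2), so a 2-fold change lay outside each of them on the probe set that represented the gene. Where a gene had several tested probe sets, which was so in 22 members, all of them had the same sign in 15.

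The wider repair machinery was read on 123 further genes, of which 108 were tested. Of these 33 rose, 11 fell and 64 did not pass, with a median log2 change of 0.033, against 30.1% and 18.9% of all genes. That balance turned with the scaling, to 19 rises and 25 falls on quantile-normalized arrays and 18 and 25 on median-centred ones. The balance over all genes moved the same way. Rises made up 61.5% of all gene calls as deposited, 49.4% on quantile-normalized and 46.1% on median-centred arrays. Leaving out parental replicate 1 or 3 or mutated replicate 1 lowered the rises among these repair genes to 19, 19 and 20. The largest rises were in HELQ, a helicase of crosslink repair (from 135 ± 8.98 to 232 ± 9.54, SD, n = 3; log2 change 0.71), POLI, a translesion polymerase (177 ± 1.18 to 284 ± 1.64; 0.64), and MLH3, a mismatch repair nuclease subunit (140 ± 8.71 to 210 ± 10.4; 0.54). Limma's adjusted p was at most 7.2e-04 for these. Other HELQ probe sets gave 0.74 (limma, adjusted p = 8.0e-04), 0.19 (0.12) and 0.16 (0.23). Those of MLH3 gave 0.20 with overlapping groups and did not pass (limma, adjusted p = 0.15 and 0.087). The second of POLI gave 0.55 (limma, adjusted p = 6.4e-04).

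The largest falls were in TRIM28, a chromatin corepressor phosphorylated by ATM (from 526 ± 40.2 to 342 ± 1.68, SD, n = 3; log2 change −0.60), BATF, a transcription factor needed for class switching (3032 ± 53.7 to 2072 ± 97.5; −0.55), and HMCES, which shields abasic sites (879 ± 33.0 to 615 ± 13.2; −0.50). Limma's adjusted p was at most 4.9e-04, and a second HMCES probe set gave −0.11 (adjusted p = 0.46). By route, beside 30.1% of all genes that rose and 18.9% that fell, 8 of 22 further recombination genes rose and 1, MUS81, fell. Of 13 further Fanconi genes FAAP24, FANCE, FANCF, FANCG and FANCM rose and UHRF1 fell. Of 13 further end joining genes PAXX, RNF8 and SHLD1 rose and 0 fell (1 was lower at an unadjusted p under 0.05; limma). Of 11 further genes of antibody diversification and translesion synthesis 3 rose and 3 fell. In base excision 5 of 16 rose and 3 fell, and in nucleotide excision 5 of 16 rose and 1 fell. Of 9 further checkpoint genes 2 rose and 2 fell. In mismatch repair 2 of 5 rose and 0 fell, and of 3 direct reversal genes 0 rose and 0 fell. The genes named by route were named after their values were seen.

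Many repair genes follow the cell cycle, so 18 proliferation genes were set beside them. Of these 7 fell (38.9%, against 18.9% of all genes), 4 rose (22.2%, against 30.1%) and 7 did not pass. The replication helicase genes MCM2 (−0.28), MCM3 (−0.31), MCM5 (−0.17), MCM6 (−0.31) and MCM7 (−0.30) fell along with RRM2 (−0.42) and E2F1 (−0.54), while CDT1 (0.39), CDK1 (0.20), RRM1 (0.19) and CCNB1 (0.14) rose on the probe sets that represent them. Second probe sets of CDT1 (0.0052), RRM1 (−0.023) and CCNB1 (0.016) did not pass, and of the 4 of MKI67 the brightest gave 0.13 (limma, adjusted p = 0.093) and another fell (−0.20, adjusted p = 0.033). Other CDK1 probe sets gave 0.040 and 0.071, which did not pass, and a dim one rose (0.25; limma, adjusted p = 0.031). Among the genes that fell, second probe sets of MCM5 (−0.65), MCM7 (−0.69) and RRM2 (−0.25) fell as well. That of MCM6 did not pass (−0.056; limma, adjusted p = 0.75), and that of E2F1 was too dim to be tested. CDC6, MCM4 and TOP2A did not pass on the brightest probe set. Dimmer ones fell in CDC6 (−0.59; limma, adjusted p = 0.0027), rose in TOP2A (0.37, 0.0055) and went both ways in MCM4 (−0.27, 0.012, and 0.45, 0.027). Their part in the changes of repair genes was not tested.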

How the data were processed

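Biotin-labelled cRNA from total RNA was hybridised to arrays, per the labels. The authors deposited a linear intensity per probe set; the sources used here do not give the background correction, the summary method or the scaling of arrays. The table had 54613 probe sets, no column outside the 6 samples (0 left out) and no pair of identical arrays, and 41091 probe sets have 1 gene symbol in the platform annotation.

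Values were transformed as log2(intensity + 16), the dimmest 40% of probe sets were left out, leaving 32768 for a two-sided test of group, with no other term, in limma 3.58.1 (lmFit, then eBayes; R 4.3.3), with Benjamini-Hochberg adjustment over all of them and a threshold of 0.05. Of 85 member probe sets 77 were tested; the other 8 had means of at most 15.05. Where a gene had several tested probe sets, the brightest on average stood for it. Depth has no meaning here; the 6 arrays limit precision.

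Full values were given for members past the threshold with groups that do not overlap, up to 8 in each direction, and for members with probe sets called both ways. RAD50 was added after its values were seen, as were single second probe sets. For other repair genes the rule took the 3 largest rises and falls. Members, lists and tests were chosen with earlier results of these data known. Alternatives were 2 scalings, 2 filters, pseudocounts of 1 and 64, trend and robust eBayes, array weights, a replicate block, the mean of probe sets, leaving out the suffixes _s_at and _x_at, and each sample left out. Plots used matplotlib 3.10.9 (Python 3.11.15).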

Additional observations from a re-analysis of the deposited data

How the results depend on the processing

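Counts over all 13644 genes stayed within 1.5 times under each alternative. Rises made up 61.5% of all gene calls as deposited, 49.4% with quantile normalization and 46.1% with median centring. Against 8 member genes that fell, 5 fell without the filter on dim probe sets, 4 with the replicate block, and 4 to 6 without 1 sample. Against 16 member probe sets that fell, 25 fell with quantile normalization, 9 without the filter and 8 to 13 without 1 sample (8 or 9 without parental replicate 1 or 2 or mutated replicate 2 or 3). Against 33 other repair genes that rose, 19 rose with quantile normalization, 18 with median centring, 20 without the filter and 19 to 28 without 1 sample. Against 11 that fell, 25 fell with either scaling, 17 without the dimmest 60%, 17 with a pseudocount of 64, 20 with trend and robust eBayes and 19 as the mean of probe sets. Sign turned with median centring in APEX1 (−0.025) and MRE11 (−0.047), with quantile normalization in ERCC2 (−0.020), as the mean of probe sets in XRCC4 (0.023), XRCC6 (0.069), POLQ (0.030) and FANCI (−0.021), in XRCC4 without the suffixes _s_at and _x_at (0.25), and without mutated replicate 2 in XRCC4, mutated replicate 3 in EXO1 and MRE11, and parental replicate 2 in XRCC6. Over the samples left out in turn XRCC4 ranged from −0.053 to 0.016, EXO1 from −0.11 to 0.0023, MRE11 from −6.6e-04 to 0.082 and XRCC6 from −0.024 to 0.0041. The cause was not tested. Same-numbered samples deviated together with r of 0.11, 0.027 and 0.11, and each sample correlated best with its own number, but the labels give no shared origin, so no pairing was assumed. With the replicate block 13 of the 18 member calls were kept (PARP1, MSH6, XRCC5, POLQ and XRCC2 did not pass). The pair ratios stayed within 1 SD under the scalings, pseudocounts, array weights and samples left out, which keep the probe sets. As the mean of probe sets and without the suffixes RAD50/MRE11 turned sign (−0.0084 and −0.29), and XRCC6/XRCC5, XRCC4/LIG4 and ATM/ATR moved by more than 1 SD.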
